A study of Mus musculus with 8 samples.

Results

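The 8 genes described here set up the melanocyte lineage: 4 transcription factors (Mitf, Sox10, Pax3 and Tfap2a) and 4 cell surface receptors (Kit, Ednrb, Mc1r and Erbb3). They were chosen by symbol from the 28918 genes of the expression table. All 8 were in the table, and all 8 passed the filter of a mean of at least 1 TPM (the transcript abundance unit of RNA-seq, scaled by transcript length and library) over the tumors, as did 13726 genes in all. The tumors grew under the skin of C57BL/6 mice from B16mhgp100, a pigmented mouse melanoma line that carries a gp100 antigen. One group over-expressed Colq, the collagen-like tail that anchors acetylcholinesterase, and the other carried the vector alone. All mice, in both groups, were given anti-PD1, which blocks an inhibitory receptor of T cells, in 4 doses of 200 µg, 2 a week, starting on day 10 after inoculation. The tumors were harvested 1 day after dosing ended. The sources used here do not give the promoter driving Colq or the age of the mice.

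The measurement was RNA-seq of polyadenylated RNA from bulk tumor. The Colq group held 3 tumors with 1 library each. The vector group held 3 tumors with 5 libraries, since vector tumors 1 and 2 were each sequenced as 2 portions. Portions were averaged per tumor, so every test set 3 tumors against 3. TPM keeps no depth, so the reads behind each value are unknown; 19887 to 21602 genes were above 0 per library. Colq itself stood at 3.86 to 5.03 TPM in Colq libraries and at 0 to 0.24 TPM in vector libraries. Melanoma markers were abundant throughout, with Tyrp1 at 1975 TPM or more in every library. On TPM as deposited the tested genes had a median log2 fold change of -0.50, so fold changes are read against that value and are also given after median-of-ratios size factors, which bring the median to near 0. Skeletal muscle markers summed to 948 to 964 TPM in single Colq libraries and to 35.3 to 177 TPM in single vector libraries. Among them Pax7 was at 0 in every library, and Myod1 and Myog were under 1 TPM in every tumor.

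In the melanocyte lineage, Pax3 and Sox10 switch on Mitf, which in turn drives the genes of pigment synthesis, survival and proliferation, and Tfap2a binds many of the same regulatory regions. Kit, Ednrb and Erbb3 guide the survival, migration and growth of melanoblasts, the precursors that leave the neural crest. Mc1r, the receptor for melanocyte-stimulating hormone, raises cyclic AMP and through it the activity of the melanocyte promoter of Mitf. Melanoma cells often keep these regulators active.

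Promoter sequences from RefSeq (GRCm38.p6) were matched for 5 of the 8 genes. Windows of 250 bases before the start were searched on both strands for the M-box core TCATGTG, the E-boxes CATGTG (contained in every M-box core) and CACGTG, the cyclic AMP response element TGACGTCA, the SOX motif ACAAAG and the AP-2 motif GCCNNNGGC. The 3 windows below are shown because they belong to the hub of the lineage (Mitf), to a receptor with an M-box (Mc1r) and to the 1 receptor that was not lower in Colq tumors (Ednrb). Capitals mark motif matches.
Mitf, melanocyte start, chr6:97991533-97991782, plus strand: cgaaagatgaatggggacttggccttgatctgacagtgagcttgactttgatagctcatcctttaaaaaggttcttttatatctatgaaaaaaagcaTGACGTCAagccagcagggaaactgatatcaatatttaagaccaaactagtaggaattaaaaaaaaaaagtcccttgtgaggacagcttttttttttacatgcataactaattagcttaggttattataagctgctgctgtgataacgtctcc
Mc1r, chr8:123406832-123407081, plus strand: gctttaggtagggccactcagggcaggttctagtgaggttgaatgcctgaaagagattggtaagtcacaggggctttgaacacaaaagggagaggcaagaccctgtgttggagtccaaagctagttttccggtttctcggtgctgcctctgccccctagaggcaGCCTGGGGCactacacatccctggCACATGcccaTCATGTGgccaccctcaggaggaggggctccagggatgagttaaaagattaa
Ednrb, chr14:103843702-103843951, minus strand: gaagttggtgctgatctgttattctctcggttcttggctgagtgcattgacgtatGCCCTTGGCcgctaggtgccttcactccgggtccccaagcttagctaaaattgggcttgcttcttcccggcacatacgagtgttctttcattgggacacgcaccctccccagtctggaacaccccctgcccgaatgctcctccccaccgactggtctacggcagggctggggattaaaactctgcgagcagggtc

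The Mitf window lies before the last of 3 starts, that of the melanocyte isoform, and held the cyclic AMP response element 153 bases before that start. This 8-letter motif occurred in 1.55% of 32851 promoter windows of the same length. The windows of the other 2 Mitf starts held none of the motifs searched. The Mc1r window held the M-box core 52 bases before the start, a further CATGTG on the minus strand 62 bases before it and an AP-2 motif 86 bases before it. Ednrb had 1 AP-2 motif 195 bases before its start, Kit had 1 at 134 bases before the first of its 2 starts, and neither window of Tfap2a held any of the motifs. The AP-2 motif occurred in 13.7% of all windows, CATGTG in 12.3%, the M-box core in 3.25%, CACGTG in 6.02% and the SOX motif in 16.5%. A match in these letters is a description and does not show that the factor binds. Sox10, Pax3 and Erbb3 have no entry.

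M-box cores lie in the promoters of 3 classic Mitf targets too, whose levels are given further on. Their 30-base surroundings are shown beside that of Mc1r, with the core in capitals as read on the gene's strand, or as CACATGA where it lies on the opposite strand.
Mc1r, chr8:123407019-123407048, plus strand: gcacatgcccaTCATGTGgccaccctcagg
Tyr, chr7:87493516-87493545, minus strand: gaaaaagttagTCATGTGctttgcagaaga
Tyrp1, chr4:80834155-80834184, plus strand: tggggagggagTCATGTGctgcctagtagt
Dct, nearer core, chr14:118052379-118052408, minus strand: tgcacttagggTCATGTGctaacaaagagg
Dct, farther core, chr14:118052460-118052489, minus strand: cttggctgggaCACATGAgcccaataaaga

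Of the 8 genes, 7 were lower in Colq tumors and 0 were higher (limma with Benjamini-Hochberg adjustment over all 13726 tested genes, adjusted p under 0.05). As deposited, 59.6% of all tested genes were lower and 11.3% were higher, so a majority of lower calls is the background here. The median log2 fold change of the 8 was -1.19, against -0.50 for all tested genes. After size factors the same 7 were lower, with a background of 25.5% lower and 28.0% higher, and the median of the 8 was -0.62, against 0.00 for all tested genes. The 3 Colq tumors lay below the 3 vector tumors for the same 7 genes, as they did for 62.2% of tested genes. Ednrb was the exception on both scales. In bulk tumor, fewer melanoma cells and less RNA of a gene per cell cannot be told apart.

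**Figure D1:**
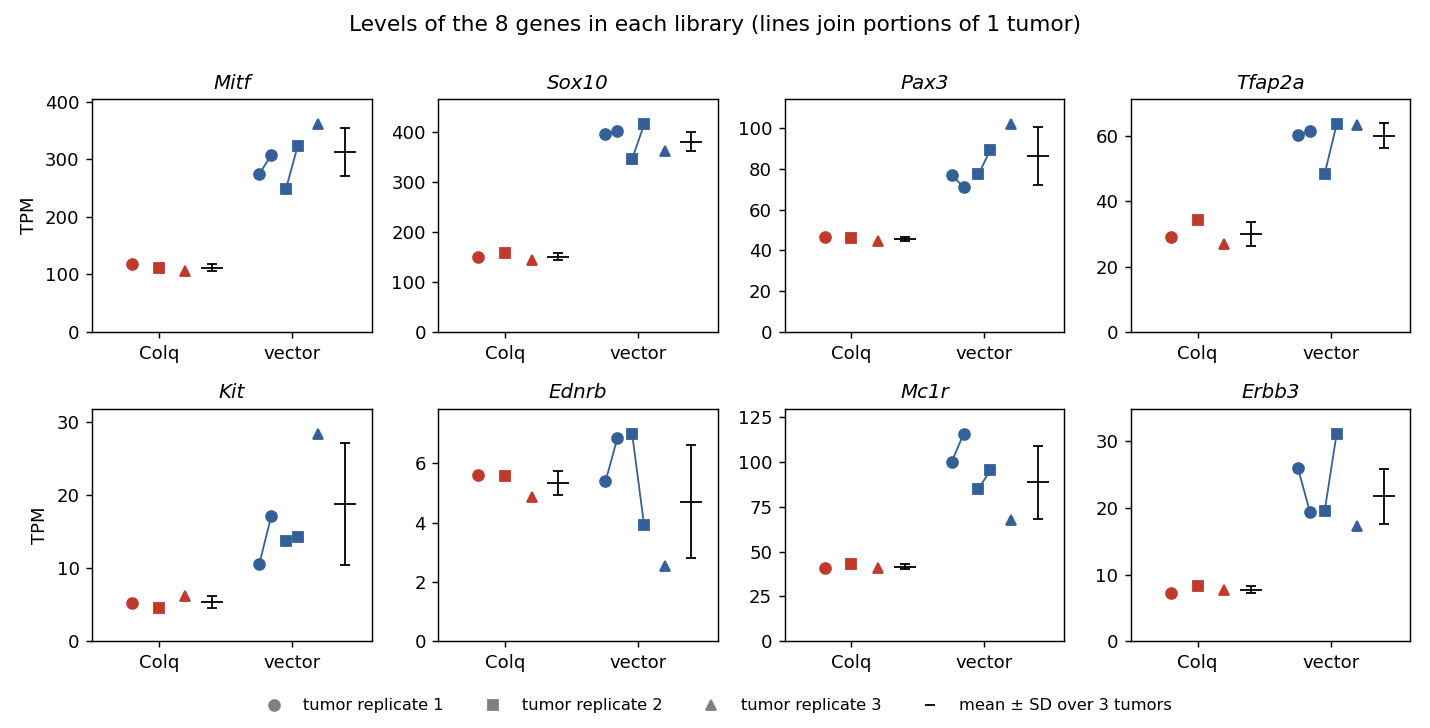
TPM of each gene (vertical axes from 0, 1 panel a gene) in the 3 Colq libraries (red) and the 5 vector libraries (blue), with symbols for tumor replicates, lines between portions of 1 tumor and bars for the mean ± SD over 3 tumors. Every Colq library lies below every vector library for 7 genes, while for Ednrb the Colq libraries, at 4.88 to 5.59 TPM, lie within the vector range of 2.53 to 7.0 TPM.

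Mitf, the basic helix-loop-helix factor that directs melanocyte differentiation (ENSMUSG00000035158; chromosome 6, 97807052 to 98021349, plus strand, here and below in the GRCm38 annotation and not in the mm39 build of the files), held 118, 111 and 106 TPM in Colq tumors 1 to 3. In vector tumors it held 274 and 307 TPM in the portions of tumor 1, 248 and 324 in those of tumor 2 and 361 in tumor 3. No Colq library came near the lowest vector portion. The means were 112 ± 5.75 TPM in Colq tumors against 312 ± 41.9 TPM in vector tumors (SD, n = 3 each), so that Colq tumors held 35.8% of the vector level. The log2 fold change, taken between values of log2(TPM + 1), was -1.46 (SE 0.10; limma adjusted p = 2.5e-05), and -0.89 after size factors (adjusted p = 0.00031).

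Sox10, the SOX factor that activates Mitf and the pigment genes (ENSMUSG00000033006; chromosome 15, 79154908 to 79165240, minus strand), held 149.8, 158 and 144 TPM in the Colq tumors. The vector libraries held 396 and 401 TPM in tumor 1, 345 and 415 TPM in tumor 2 and 362 TPM in tumor 3. All vector libraries were high and close together, and the groups did not overlap. Means were 150.6 ± 7.38 TPM in Colq tumors against 380.0 ± 18.5 TPM in vector tumors, or 39.6% of the vector level. Sox10 had the smallest adjusted p of the 8 (log2 fold change -1.33, SE 0.06; limma adjusted p = 1.1e-05), and stood at -0.75 after size factors (adjusted p = 0.00014).

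Pax3, the paired-box factor that acts with Sox10 on Mitf and marks melanoblasts and melanocyte stem cells (ENSMUSG00000004872; chromosome 1, 78101267 to 78197134, minus strand), held 46.7, 46.1 and 44.8 TPM in the Colq tumors. Vector tumor 1 held 76.8 and 71.2 TPM, vector tumor 2 held 77.3 and 89.3 TPM and vector tumor 3 held 102 TPM. The groups lay apart, with the Colq tumors nearly level and vector tumor 3 the highest. Pax3 averaged 45.8 ± 0.97 TPM in Colq tumors against 86.4 ± 14.2 TPM in vector tumors, 53.1% of the vector level. It had the smallest fall of the 7 (log2 fold change -0.89, SE 0.11; limma adjusted p = 0.00030), and -0.32 after size factors (adjusted p = 0.035). Its call was lost once the trend on transcript length and GC content was removed (-0.23, limma adjusted p = 0.10).

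Tfap2a, the AP-2 alpha factor of neural crest and epidermis (ENSMUSG00000021359; chromosome 13, 40715302 to 40738376, minus strand), held 29.2, 34.2 and 27.1 TPM in the Colq tumors. In the vector libraries it stood at 60.2 and 61.5 TPM in tumor 1, 48.5 and 63.6 TPM in tumor 2 and 63.5 TPM in tumor 3. The lowest vector portion still lay above the highest Colq tumor. The log2 fold change was -0.97 (SE 0.10; limma adjusted p = 0.00011) and -0.41 after size factors (adjusted p = 0.0082), with means of 30.1 ± 3.66 TPM in Colq tumors against 60.1 ± 3.78 TPM in vector tumors. Libraries were made without strand, and antisense gene models share 73 to 380 exonic bases with Tfap2a, so their reads cannot be told from its own.

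Among the receptors, Kit, the tyrosine kinase for stem cell factor (ENSMUSG00000005672; chromosome 5, 75574916 to 75656722, plus strand), had the largest fall on TPM as deposited. It held 5.27, 4.52 and 6.18 TPM in the Colq tumors, against 10.6 and 17.1 TPM in the portions of vector tumor 1, 13.7 and 14.3 TPM in those of vector tumor 2 and 28.5 TPM in vector tumor 3. All Colq values were low, and vector tumor 3 stood well above the other vector tumors. The means were 5.32 ± 0.83 TPM in Colq tumors against 18.8 ± 8.38 TPM in vector tumors, 28.4% of the vector level. The log2 fold change was -1.56 (SE 0.27; limma adjusted p = 0.0014), -1.06 after size factors (adjusted p = 0.013), and -1.23 without vector tumor 3 (adjusted p = 0.00027). Counting the 3 Colq libraries as 1 sample ended the call (-1.56, limma adjusted p = 0.053), and so did removal of the length and GC trend (-0.74, adjusted p = 0.053).

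Mast cells also carry Kit. Of 11 mast cell markers, 7 were tested, and of these 4 were higher and 1 was lower in Colq tumors. Of all tested genes, 11.3% were higher and 59.6% lower. The mast cell chymases Cma1 and Mcpt4 had log2 fold changes of 1.96 and 1.66, Tpsb2 of 0.78 and Cpa3 of 0.76, while Hpgds, a prostaglandin synthase, was at -0.73. Gata2 stood at -0.25 (limma adjusted p = 0.35). After size factors 4 of the 7 were higher and 0 lower, against 28.0% and 25.5% of all tested genes. With first portions only 2 were higher, and with the length and GC trend removed 3 were. The summed level of the list was 39.7 to 46.2 TPM in single Colq libraries and 26.9 to 42.8 TPM in single vector libraries. Ms4a2, a chain of the IgE receptor, was at 0 in 4 of the 5 vector libraries and at 0.12 to 0.29 TPM in Colq libraries. Kit and these 4 mast cell markers thus differed in opposite directions, and the part of mast cells in the Kit level was not tested.

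Erbb3, a receptor for neuregulins that signals as a partner of Erbb2 (ENSMUSG00000018166; chromosome 10, 128567523 to 128589652, minus strand), held 7.28, 8.27 and 7.63 TPM in the Colq tumors. The vector libraries held 25.9 and 19.4 TPM in tumor 1, 19.5 and 31.1 TPM in tumor 2 and 17.3 TPM in tumor 3. Portions of 1 vector tumor differed widely, yet all were above the Colq tumors. Means were 7.73 ± 0.50 TPM in Colq tumors against 21.7 ± 4.11 TPM in vector tumors, 35.5% of the vector level. The log2 fold change was -1.35 (SE 0.14; limma adjusted p = 9.9e-05), and -0.83 after size factors (adjusted p = 0.0024).

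Schwann cells share Sox10 and Erbb3 with melanocytes, and their part in the 2 levels was not tested.

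Mc1r (ENSMUSG00000074037; chromosome 8, 123407107 to 123410744, plus strand) held 41.0, 43.0 and 40.8 TPM in the Colq tumors. In vector tumors it stood at 100.1 and 116 TPM in tumor 1, 85.0 and 95.2 TPM in tumor 2 and 67.6 TPM in tumor 3. The Colq tumors were nearly level and lower than every vector library, of which vector tumor 3 was the lowest. The means were 41.6 ± 1.20 TPM in Colq tumors against 88.5 ± 20.2 TPM in vector tumors, 47.0% of the vector level. Its log2 fold change was -1.04 (SE 0.15; limma adjusted p = 0.00061) and -0.48 after size factors (adjusted p = 0.044). An antisense gene model shares 653 exonic bases with Mc1r, and reads of the 2 cannot be told apart.

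Ednrb, the endothelin receptor B on which melanoblasts depend (ENSMUSG00000022122; chromosome 14, 103814625 to 103844402, minus strand), held 5.59, 5.58 and 4.88 TPM in the Colq tumors. In the vector libraries it held 5.39 and 6.86 TPM in tumor 1, 7.0 and 3.92 TPM in tumor 2 and 2.53 TPM in tumor 3. The groups overlapped, and the spread lay within the vector group, including between the portions of tumor 2. The means were 5.35 ± 0.41 TPM in Colq tumors against 4.705 ± 1.91 TPM in vector tumors. The log2 fold change of 0.23 (SE 0.25; limma adjusted p = 0.43) did not pass, nor did that of 0.69 after size factors (adjusted p = 0.054). Without vector tumor 3 the value was -0.07 (adjusted p = 0.60). In the authors' deposited table, which was made with DESeq2, Ednrb was higher in Colq tumors (log2 fold change 0.73, SE 0.27, adjusted p = 0.021).

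Endothelial and stromal cells can also express Ednrb. Of 12 endothelial markers 11 were tested, and 10 were lower and 0 higher in Colq tumors, against 59.6% and 11.3% of all tested genes. After size factors 8 of the 11 were lower, against 25.5% of all tested genes. Cdh5, the endothelial cadherin, stood at -2.11, the growth factor receptors Flt1 and Kdr at -2.06 and -1.64, and Eng at -1.38. The list summed to 141 to 144 TPM in single Colq libraries and to 309 to 353 TPM in single vector libraries, with none of its markers at 0. Ednrb did not share that direction. The part of these cells in its level was not tested.

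**Figure D2:**
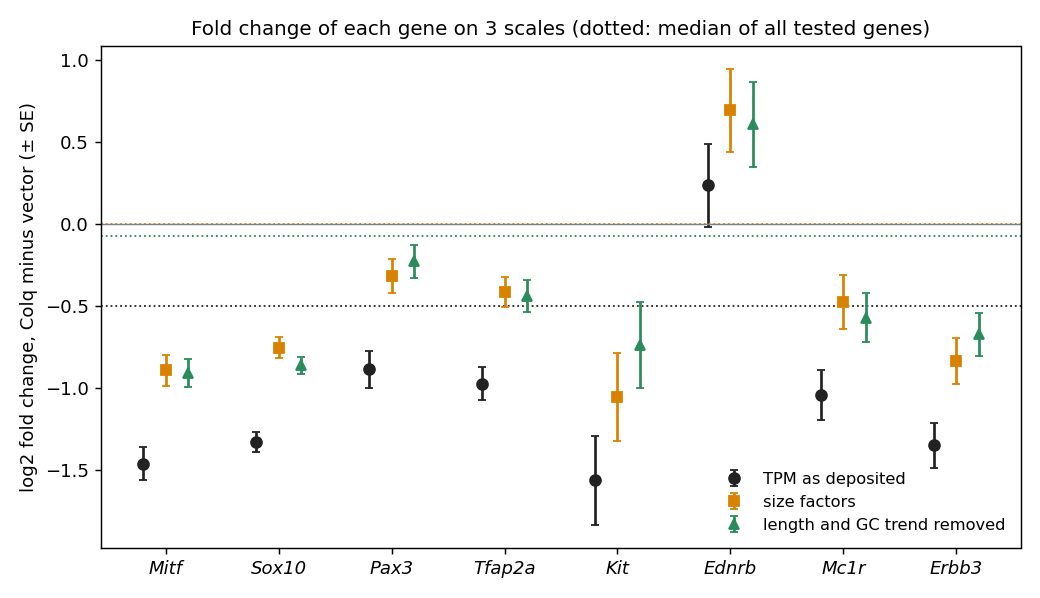
Log2 fold change, Colq minus vector, with SE for each gene on TPM as deposited, after size factors and with the length and GC trend removed, each scale with a dotted line at its median over all tested genes. On TPM as deposited 7 genes lie between -1.56 and -0.89 and Ednrb at 0.23; on the other 2 scales all 8 move up, and Pax3 comes closest to the median from below.

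The authors' deposited table gave the same directions for the other 7. Its log2 fold changes were -0.93 for Mitf, -0.79 for Sox10, -0.36 for Pax3, -0.45 for Tfap2a, -1.25 for Kit, -0.55 for Mc1r and -0.95 for Erbb3, with adjusted p from DESeq2 of at most 0.0032. Of its genes with an adjusted p, 20.4% were lower and 20.1% higher in Colq tumors, and its median log2 fold change was 0.03. These values lie nearer to those after size factors than to those on TPM as deposited. They come from libraries of the same tumors and are not a second measurement.

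TPM is a level per transcript length, so the 8 genes can be ranked. Sox10 was first and Mitf second in both groups, and their tumors did not overlap within a group. In Colq tumors Pax3 (45.8 TPM), Mc1r (41.6), Tfap2a (30.1) and Erbb3 (7.73) followed with no overlap between neighbors. Ednrb (5.35) and Kit (5.32) came last and overlapped. Next in vector tumors came Mc1r (88.5 TPM) and Pax3 (86.4), which overlapped, then Tfap2a (60.1), then Erbb3 (21.7) and Kit (18.8) overlapping, and Ednrb (4.705) last. Kit stood above Ednrb in every vector library and overlapped with it in Colq tumors. Summed over the 4 transcription factors, the level was 322 to 350.1 TPM in single Colq libraries and 719 to 891 TPM in single vector libraries. Both ends of the vector range came from portions of vector tumor 2.

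The Colq tumors varied little in the median gene. Over all tested genes the median SD of log2(TPM + 1) was 0.09 between Colq tumors and 0.14 between vector tumors. For 8 of the 8 genes the whole range of the 3 Colq tumors was smaller than the larger of the 2 gaps between portions of a single vector tumor. The share of all tested genes for which this holds was not computed. Set against the range between vector tumors, Tfap2a varied more in Colq tumors (0.33 against 0.19), and Sox10 varied alike (0.14 in both groups). For Mitf the Colq range was 0.15 on the log2 scale, against a gap of 0.38 between the portions of vector tumor 2. Ednrb ranged over 0.16 in Colq tumors, against a gap of 0.70 between the portions of vector tumor 2. Nothing in the labels says how the Colq tumors were sampled beyond that they are separate tumors, so p-values measure the spread between these samples. With the Colq libraries counted as 1 sample, which leaves the spread to the vector tumors, 6 of the 8 genes were lower (background 41.6% lower and 5.74% higher) and Kit was lost.

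The 8 genes were next set against 6 pigment genes of the same lineage (Tyr, Tyrp1, Dct, Mlana, Slc45a2 and Gpr143) within each tumor, as log2(TPM + 1) of the gene minus the mean of the 6. That mean was 9.12 ± 0.02 in Colq tumors and 9.73 ± 0.18 in vector tumors (SD, n = 3 each), a difference of -0.61. Relative to it, 6 of the 8 genes stood lower in every Colq tumor than in any vector tumor, Ednrb stood higher, and Mc1r overlapped. The share of all tested genes on this relative measure was not computed, so the count has no background here. On TPM as deposited 62.2% of tested genes lay lower without overlap. Pmel, outside both sets, also lay lower without overlap on the relative measure (-0.45). Pmel is the gene of gp100, the antigen that the line carries, and the part of that antigen's reads in the Pmel level was not tested. The relative differences of the 4 transcription factors, Colq minus vector, were -0.85 for Mitf, -0.72 for Sox10, -0.28 for Pax3 and -0.37 for Tfap2a. Those of the 4 receptors were -0.95 for Kit, -0.74 for Erbb3, -0.44 for Mc1r and 0.84 for Ednrb. The size moved with single vector tumors for several genes. Mc1r stood at -0.72 without Vector replicate 3 and -0.21 without Vector replicate 1, and Ednrb at 0.43 without Vector replicate 3. Kit stood at -0.73 without Vector replicate 3 and -1.08 without Vector replicate 2. Without Vector replicate 3, Erbb3 stood at -0.99 and Sox10 at -0.86. Erbb3 was at -0.61 without Vector replicate 2, and Sox10 at -0.61 without Vector replicate 1. Mitf stood at -2.23, -2.32 and -2.35 in the Colq tumors and at -1.39, -1.52 and -1.43 in the vector tumors. By exact two-sided permutation over the 6 tumors p was 0.1 for the 7 genes without overlap, the smallest that 3 against 3 allows, and 0.4 for Mc1r (0.11 and 0.4 with Benjamini-Hochberg adjustment over the 8). None can pass 0.05 in this design.

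**Figure D3:**
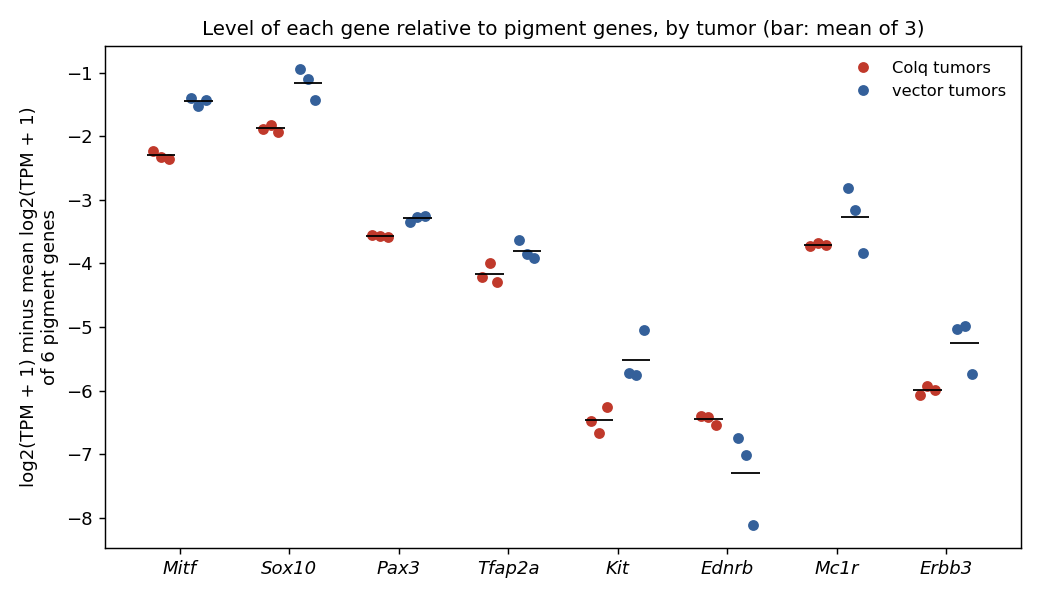
Log2(TPM + 1) of each gene minus the mean of 6 pigment genes, for 3 Colq tumors (red) and 3 vector tumors (blue), with a bar at the mean. Colq tumors lie below vector tumors for 6 genes and above them for Ednrb, and for Mc1r vector tumor 3, at -3.83, lies below the Colq tumors at -3.73 to -3.68.

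The pigment genes did not move as a block. Tyrp1, an enzyme of eumelanin synthesis, was at 2011 ± 40.8 TPM in Colq tumors against 4985 ± 538 TPM in vector tumors (log2 fold change -1.30), close to Mitf. Slc45a2, a melanosome transporter, was at -1.04 and Pmel, the fibril protein of the melanosome, at -1.06. Gpr143 (-0.69) and Dct (-0.68) fell as deposited and were not called after size factors. Tyr, the tyrosinase whose promoter holds the M-box printed above, was at 175 ± 2.40 TPM in Colq tumors against 200.5 ± 15.3 TPM in vector tumors. It was called lower as deposited (-0.19, limma adjusted p = 0.036) and higher after size factors (0.38, adjusted p = 0.0014). Mlana stood at 0.25 (adjusted p = 0.084), and at 0.83 after size factors (adjusted p = 0.0013). The same M-box core thus lay before Tyr, Tyrp1, Dct and Mc1r, whose log2 fold changes as deposited ran from -1.30 to -0.19.

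The 26 melanocytic targets of Mitf and Sox10 share pigment genes with the 6 above, so the 2 results are not separate. Among the 26, all tested, 19 were lower and 1 was higher in Colq tumors. Of all tested genes, 59.6% were lower and 11.3% higher. After size factors 9 targets were lower and 6 higher, against 25.5% and 28.0% of all tested genes. The median log2 fold change of the targets was -0.68 as deposited and -0.12 after size factors, against -1.15 and -0.58 for the 4 transcription factors. The glycoprotein Gpnmb was at -1.03, Tbc1d16, a regulator of membrane traffic, at -1.43, and Mlph, which links melanosomes to the motor protein that carries them, at -1.16. S100b was the 1 target called higher (0.29, limma adjusted p = 0.035), named after its value was seen. No target was called higher when any single Colq tumor was left out, with second portions only, with no filter on low values or with the Colq libraries counted once, and 5 were without Vector replicate 3. The deposited table of the authors gave -0.76 for Tyrp1 and -0.50 for Slc45a2 but 0.36 for Tyr and 0.79 for Mlana.

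**Figure D4:**
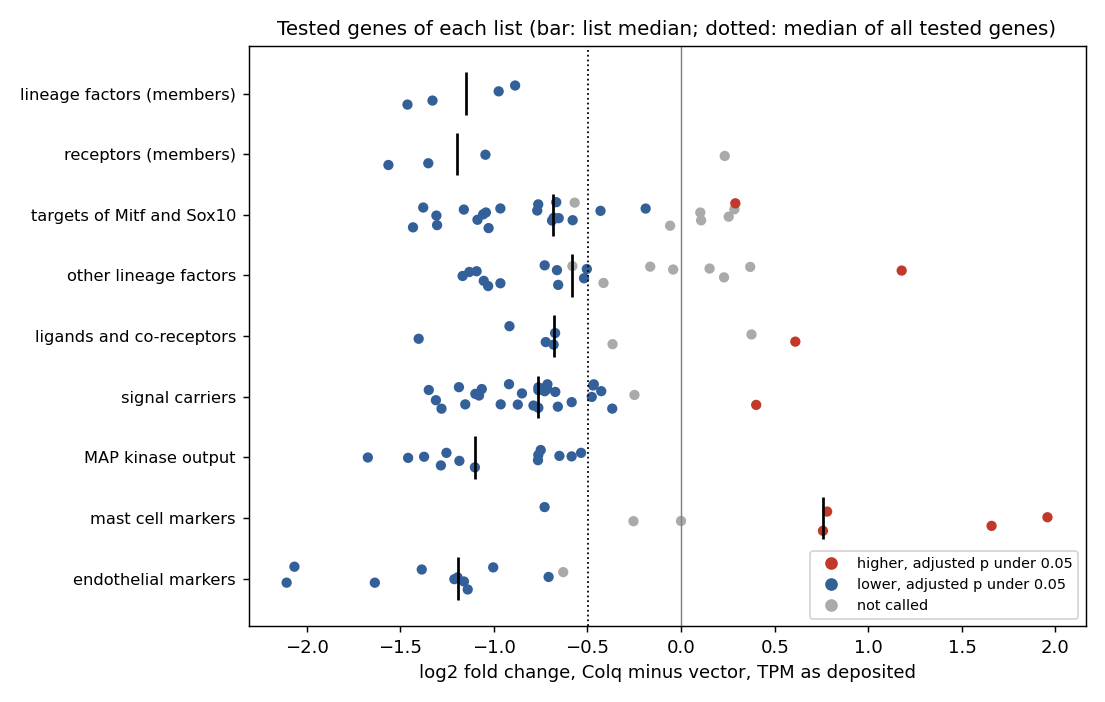
Log2 fold changes, Colq minus vector, of the tested genes of the lists named on the axis, on TPM as deposited, colored by call, with a bar at each list's median and a dotted line at the median of all tested genes, -0.50. The transcription factors and receptors of the lineage have medians of -1.15 and -1.20, and the mast cell list lies mostly above 0.

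Of 20 ligands, co-receptors and processing enzymes of the 4 receptors, 19 were in the table and 8 were tested. As deposited, 1 of the 8 was higher and 5 were lower, against 11.3% and 59.6% of all tested genes. After size factors 2 were higher and 2 lower, against 28.0% and 25.5%. With the length and GC trend removed 1 was higher and 1 lower, against 19.6% and 27.7% of all genes in that fit. Kitl, the ligand of Kit, was the 1 that was higher, at 5.70 ± 0.32 TPM in Colq tumors against 3.45 ± 0.77 TPM in vector tumors (log2 fold change 0.61; limma adjusted p = 0.0082; 1.07 after size factors). Its Colq tumors held 5.78, 5.97 and 5.35 TPM, against 4.11 and 4.01 TPM, 4.54 and 2.89 TPM and 2.59 TPM in vector tumors 1 to 3. Ligand and receptor thus stood apart in opposite directions, with all Colq libraries above all vector libraries for Kitl and below them for Kit. With the length and GC trend removed Kitl stayed higher (1.00), while Kit lost its call, as given above. The Kitl call, like that of Kit, depended on counting the Colq libraries separately.

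Attractin (Atrn), which takes part in agouti signaling at Mc1r, was lower at -1.40, and so was Mgrn1, a ubiquitin ligase that dampens Mc1r signaling, at -0.67. Mgrn1 stood at -0.11 after size factors (adjusted p = 0.22). Ece1, which cleaves endothelin precursors, was at -0.92, the other endothelin receptor Ednra at -0.72, and Erbb2, the signaling partner of Erbb3, at -0.68. Of these only Atrn and Ece1 were also lower after size factors. Pomc, the precursor of melanocyte-stimulating hormone, was at 0.38 (adjusted p = 0.18) as deposited and higher after size factors (0.79, adjusted p = 0.023), and Nrg4 was at -0.37 (adjusted p = 0.16).

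The other ligands were scarce. Edn1 averaged 0.38 ± 0.04 TPM in Colq tumors against 1.21 ± 0.15 TPM in vector tumors, under the filter. Edn3, the ligand of Ednrb in the developing skin, was above 0 in 1 Colq library only, at 0.02 TPM. Nrg1 averaged 0.27 ± 0.06 TPM in Colq tumors against 0.48 ± 0.43 TPM in vector tumors, and Erbb4 was listed at 0 everywhere. Asip was not analysed here.

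Downstream of the receptors, 28 of 30 tested signal carriers were lower and 1 was higher in Colq tumors as deposited. Of all tested genes, 59.6% were lower and 11.3% higher on that scale. After size factors 14 carriers were lower and 1 higher, against 25.5% and 28.0% of all tested genes, and the median of the list was -0.19. The kinase Gsk3b (-1.28), the exchange factor Sos1 (-1.31), which links receptor kinases to Ras, and the G protein Gna11 (-0.92), which can couple to endothelin receptors, were lower on both scales. Prkar1a, a regulatory subunit of the cyclic AMP-dependent kinase, was at -0.71 as deposited and still lower after size factors (-0.14, limma adjusted p = 0.039). Ctnnb1 (-0.67) and Shc1 (-0.72) were not called after size factors. Hras, named after its value was seen, was the 1 that was higher, at 83.2 ± 3.23 TPM in Colq tumors against 62.8 ± 2.86 TPM in vector tumors.

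Genes that report the output of the MAP kinase pathway, which Kit and Erbb3 feed, were lower in 13 of 13 tested cases as deposited. Their median was -1.10. Of all tested genes, 59.6% were lower on that scale. After size factors 6 of the 13 were lower and 0 higher, against 25.5% and 28.0% of all tested genes. With the length and GC trend removed 10 of the 13 were lower, against 27.7% of all genes in that fit. Etv1, a factor stabilized by Kit signaling in some tumors, held 7.91 ± 0.29 TPM in Colq tumors against 27.8 ± 3.81 TPM in vector tumors (log2 fold change -1.67; limma adjusted p = 2.4e-05). Etv5 was at -1.46, and the feedback inhibitors Spry4, Spred2, Spry1 and Dusp4 were at -1.37, -1.28, -1.25 and -1.18. These 6 were lower on all 3 scales.

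Beyond Mitf, its family held Tfe3 (-0.80) and Tfeb (-0.53), both lower as deposited, and Tfec, higher at 0.79 (2.14 ± 0.61 TPM in Colq tumors against 0.81 ± 0.13 TPM in vector tumors; limma adjusted p = 0.0079). Of the other 2 falling members only Tfe3 was lower after size factors (-0.25, adjusted p = 0.021); Tfeb stood at 0.02. Mitf was the most abundant of the 4 in both groups. Tfec is known from macrophages, and leukocyte markers were higher in 1 and lower in 0 of 8 tested as deposited (median log2 fold change 0.10). The background on that scale was 11.3% higher and 59.6% lower. After size factors 3 of the 8 were higher (median 0.64) and 0 lower, against a background of 28.0% and 25.5%. With the length and GC trend removed 3 were higher (median 0.53) and 0 lower, against 19.6% and 27.7%. On TPM as deposited 0 were higher when any single Colq tumor was left out. The leukocyte markers had a summed level of 128 to 138 TPM in single Colq libraries and 82.2 to 196 TPM in single vector libraries. Their part in the Tfec level was not tested.

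Of 19 tested further transcription factors of neural crest and melanocytes, 11 were lower and 1 was higher in Colq tumors, where 59.6% of all tested genes were lower and 11.3% higher. After size factors 6 were lower and 3 higher, against 25.5% and 28.0% of all tested genes, so the share that was lower lay near the background on both scales. Ets1 (-1.17), Zeb2 (-1.09), Bhlhe40 (-1.03) and Sox4 (-0.96) were lower on both scales, while Tbx2 (-0.66) was lower as deposited only. Twist1, a driver of mesenchymal transition, was the 1 that was higher as deposited, at 3.20 ± 0.18 TPM in Colq tumors against 0.88 ± 0.07 TPM in vector tumors (log2 fold change 1.18; limma adjusted p = 0.00019). Fibroblasts also express Twist1, and 5 of 10 fibroblast markers were higher and 3 lower. These markers had a summed level of 396 to 429 TPM in single Colq libraries and 179 to 346 TPM in single vector libraries. The part of fibroblasts in the Twist1 level was not tested. Pax7 was listed at 0 in every library.

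Keratinocytes express Tfap2a as well. Of 9 tested keratinocyte markers 5 were higher and 1 was lower in Colq tumors, but 1 was higher with first portions only, 8 with second portions only, 3 with tumor as a random block and 1 with the Colq libraries counted once. As deposited, 11.3% of all tested genes were higher and 59.6% lower. The keratinocyte markers had a summed level of 49.3 to 55.0 TPM in single Colq libraries and 3.49 to 267 TPM in single vector libraries. The top of the vector range is a single portion of a tumor whose first portion held 133 TPM of Krt14, against 0.18 TPM in its second. Tfap2a stood at 60.2 and 61.5 TPM in those 2 portions. The part of keratinocytes in the Tfap2a level was not tested. Using first portions only or second portions only, 7 of the 8 genes were lower in Colq tumors each time, and the value for Tfap2a was -0.90 and -1.04.

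Fold changes followed transcript length in the table as a whole, from a median of 0.31 for genes under 1000 exonic bases to -0.88 for those of 8000 bases or more. The exonic lengths of the 8 genes ran from 3051 bases for Sox10 to 8911 for Kit. Sox10 (-1.33) and Mc1r (-1.04) fall in the class from 2000 to 4000 bases, whose median was -0.37. Mitf (-1.46), Erbb3 (-1.35), Tfap2a (-0.97), Pax3 (-0.89) and Ednrb (0.23) fall in that from 4000 to 8000 bases, with a median of -0.64, and Kit (-1.56) in the longest class.

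After loess removal of the length and GC trend, 5 of the 8 genes were lower, against a background of 27.7% lower and 19.6% higher. Sox10 stood at -0.86 (limma adjusted p = 6.0e-05), Mitf at -0.91 (0.00029), Erbb3 at -0.67 (0.0055), Tfap2a at -0.44 (0.0086) and Mc1r at -0.57 (0.018). Pax3 and Kit lost their calls, as given above, and Ednrb stood at 0.61 (0.094). The lengths came from a GRCm38 annotation, which covers 96.1% of tested genes.

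**Figure D5:**
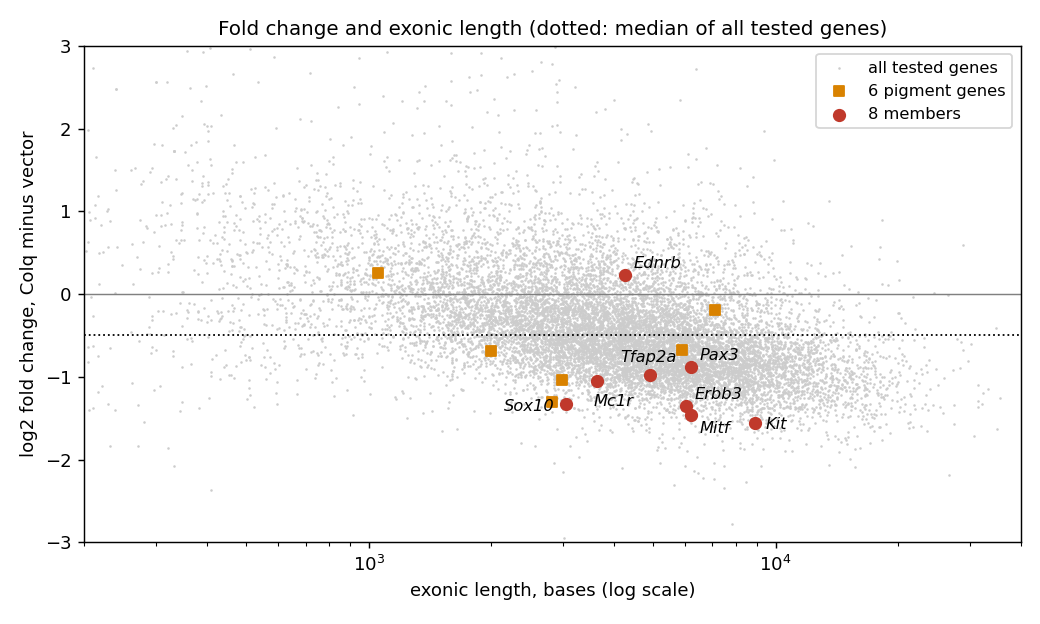
Log2 fold change, Colq minus vector, against exonic length (log axis) for tested genes (grey, those beyond the axis limits not drawn), the 6 pigment genes (orange squares) and the 8 lineage genes (red). Of the 8, 7 lie below the median of their length class, Sox10 at -1.33 against -0.37, and Ednrb lies above it, at 0.23 against -0.64.

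Likeness to Mitf was measured as Pearson's r of log2(TPM + 1) over the 6 tumors, a description in which all points share the difference between groups. The genes most like it were Txlna, Tpr and Frk, each with r = 0.999 or more, and those most opposed were Rpl3l (-0.9996), Ssr4 (-0.999) and Aldh1a1 (-0.998). Of 13726 tested genes, Tyrp1 ranked 28th in likeness (r = 0.999) and Slc45a2 796th (0.992). Among the other 7 lineage genes r was 0.985 for Pax3, 0.979 for Tfap2a, 0.978 for Sox10, 0.955 for Kit, 0.930 for Erbb3 and 0.880 for Mc1r, with ranks between 1839 and 7056, and -0.47 for Ednrb. The ranks show that many genes that were lower in Colq tumors reach such values, so they set no member apart.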

How the data were processed

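RNA-seq of 8 libraries from 6 tumors was used. The authors deposited expression as log2(TPM + 1), which was read from the values, made with RSEM on mm39 per the submitters' processing notes; the sources used here give no aligner, version or annotation. The authors' deposited comparison, made with DESeq2 per the submitters' processing notes, holds a mean normalized signal, log2 fold changes and p-values per the file headers; the libraries that entered it are not stated in those sources, and the positive value of Colq shows that it runs Colq over vector.

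Portions were averaged per tumor on the log2 scale. A mean of at least 1 TPM was required for testing, which used limma (version 3.58.1, trended eBayes, R 4.3.3) on the log2(TPM + 1) values, adjusted by Benjamini-Hochberg. A fold change is Colq minus vector and is understated for low genes. Single values were tested by exact two-sided permutation over tumors, whose smallest p is 0.1. The 8 genes and 16 lists were chosen with earlier results of these data known. Named genes were the 8, Colq, tested ligands and co-receptors, the Mitf family, up to 6 genes a list by smallest p, and the 3 most and 3 least like Mitf. Same-numbered tumors did not pair: their deviations correlated at 0.03, 0.007 and 0.044. Alternatives were size factors, pseudocounts of 0.1 or 0.5, a filter at 5 TPM or none, quantile normalization, loess removal (span 0.5) of length and GC content, other treatments of portions, a replicate block, robust moderation, the Colq libraries as 1 sample, and leaving out each tumor. On simulated data for 13726 genes with 200 changed, 80% of genes with a log2 fold of 1 and 92% of those with 2 were recovered, with 8 false calls. The simulated data held no shift of the whole table and no length trend, unlike the tumors. The 8 false calls therefore do not measure the error of the calls reported here. Since depth is unknown, only the spread between tumors sets the precision. Python 3.11.15 with numpy 2.4.6, pandas 2.3.3 and matplotlib 3.10.9 handled tables and figures. The receptor repertoire table was not used. Of the lists, the Schwann cell markers are not reported here.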

Additional observations from a re-analysis of the deposited data

How the results depend on the processing

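Over 20 alternatives, between 5 and 7 of the 8 genes were lower in Colq tumors and 0 were higher. The count was 5 with the length and GC trend removed, 6 with the Colq libraries as 1 sample and 7 under each of the others, including each left-out tumor and the replicate block. Mitf, Sox10, Tfap2a, Mc1r and Erbb3 kept direction and call under all 20. Pax3 lost its call with the length and GC trend removed (-0.23, adjusted p = 0.10), and so did Kit (-0.74, adjusted p = 0.053). Kit also lost it (-1.56, adjusted p = 0.053) where the Colq libraries counted as 1 sample, a fit with fewer samples. Ednrb reversed without Vector replicate 3 (-0.073, adjusted p = 0.60) and passed under none, with values between -0.07 and 0.69. Leaving out single tumors gave -1.52 to -1.35 for Mitf, -1.36 to -1.29 for Sox10, -0.99 to -0.76 for Pax3, -1.07 to -0.90 for Tfap2a, -1.74 to -1.23 for Kit, -0.07 to 0.43 for Ednrb, -1.22 to -0.89 for Mc1r and -1.49 to -1.25 for Erbb3. Relative to pigment genes, Pax3 moved to -0.21 with Pmel added; leaving out single tumors gave -0.72 to -0.21 for Mc1r and 0.43 to 1.11 for Ednrb, and no sign changed among the 8. With the replicate block, which the design does not ask for, 1526 genes were higher and 7928 lower over all genes, against 1556 and 8181 without it; 7 of the 8 were lower in both fits. Over all genes, size factors gave 3843 higher and 3505 lower, quantile normalization 3150 and 4243, and the length and GC trend removed 2579 and 3648. Where the cause of a change is not named here, the cause was not tested.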
